A study of Homo sapiens with 8 samples.

Results

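The histone genes of 2 human T-cell acute lymphoblastic leukaemia lines were described here across treatment and line. Members were the genes whose symbol places them in a histone gene cluster (symbols from HIST1 to HIST4 followed by a class H1, H2A, H2B, H3 or H4, symbols with the pseudogene ending PS left out), together with H1F0, H1FX, H2AFX, H2AFZ, H2AFV, H3F3A and H3F3B. That rule took 99 gene identifiers with 83 distinct symbols out of 63677 genes. Of these, 56 had at least 20 counts over the 8 libraries and are described: 49 of the 92 cluster genes and all 7 of the genes named singly, called replacement variants below. A further 18 had fewer counts and 25 were at 0, among them 19 whose symbol also belonged to a second identifier. HIST2H2BC, HIST2H2BD and HIST3H2BA, 3 of the described genes, are typed as pseudogenes in GENCODE release 29. Just inside the limit lay HIST3H2BB with 22 counts and HIST1H2AB with 24, and just outside it HIST1H4D with 19 and HIST1H2BE with 16.

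DND-41 and MOLT-4 are established lines, grown in the same medium. Cells of each received ACBI-1 at 100 nM, or its solvent DMSO, for 24 h, and each of the 4 groups held 2 libraries. ACBI-1 is a PROTAC that recruits the ubiquitin ligase VHL to SMARCA2, SMARCA4 and PBRM1, subunits of SWI/SNF chromatin remodellers, for their degradation, so that the RNA of these genes does not check the labels. Total RNA was sequenced strand-specifically, with 21308737 to 22067644 counts assigned to genes per library. Nothing in the labels says that the 2 libraries of a group came from separate cultures, so the tests measure the spread between libraries, which may be technical. T-cell genes were abundant (CD3E at a mean of 923 CPM in DND-41 and 776 CPM in MOLT-4, where CPM is the usual depth-scaled count), although PTCRA was at 0.02 CPM in DND-41. Of the markers of other cells, the B-cell gene MS4A1 and the erythroid gene HBB were at 0, while the B-cell receptor component CD79A stood at 454 CPM in DND-41 and 2.49 CPM in MOLT-4.

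The DND-41 libraries went against their labels in 1 respect. Those that shared a number, not a treatment, deviated together. The log2 fold changes of the authors' deposited table of DND-41 matched the ratio of libraries numbered 2 to libraries numbered 1 in 100% of 27069 genes, within 0.001, and the labelled treatment contrast in only 0.151%. The authors' deposited table of the other line, MOLT-4, matched the labelled treatments in 100% of 27777 genes. The DND-41 comparison is therefore given as labelled, with the values of the authors' deposited table beside it under that name. Header names of the MOLT-4 counts carry the suffix "redo", which nothing explains, so the line and whatever the suffix marks cannot be told apart.

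Histones package DNA: H2A, H2B, H3 and H4 form the nucleosome core, and linker H1 binds the DNA between nucleosomes. The cluster genes are mostly replication-dependent. They are transcribed in S phase, and their short, intronless mRNAs end in a stem-loop in place of a poly(A) tail. Replacement variants are made throughout the cell cycle from polyadenylated mRNAs and are put into chromatin apart from replication. Some cluster genes, among them H2A and H2B genes, can also give polyadenylated transcripts, above all in cells that leave the cycle. SWI/SNF complexes, whose ATPases ACBI-1 targets, slide and evict nucleosomes.

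Most histone reads came from the replacement variants. They held 325232 counts over the 8 libraries, against 12398 for the 49 cluster genes, a ratio of 26.2 that is not corrected for length. The cluster genes took 0.00406% to 0.0129% of a library's counts and the variants 0.174% to 0.206%. Within the clusters, HIST1H2BK, an H2B gene, alone held 24.3% of the counts, and with HIST1H1C (linker H1), HIST1H2AC and HIST1H2AG (both H2A) it held 50.2%. By class, the counts were 5641 for H2B, 2895 for H2A, 1476 for H4, 1336 for H1 and 1050 for H3. The number of described genes was 17 of 29 for H2B, 11 of 21 for H2A, 7 of 17 for H4, 4 of 6 for H1 and 10 of 19 for H3.

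Per kilobase of annotated exon, the gap between the groups narrowed. The lengths used were 381 bases for HIST1H2BK, 435 for HIST1H4C and 642 for HIST1H1C. They were 1668 for HIST1H2AC and 2250 for HIST1H2AG, against 4749 for H2AFV and 6134 for H3F3B. For H1FX, H2AFX and H2AFZ they were 1507, 1614 and 2303. Whether these lengths match the exons over which reads were counted was not tested. The narrowing and the order of genes given here therefore hold for these lengths only. In DND-41, the level of HIST1H2BK was 55.1 ± 18.9 CPM per kilobase (SD, n = 4 libraries), beside 48.5 ± 1.87 for H2AFV and 47.7 ± 15.4 for H3F3B. The SDs of HIST1H2BK and H3F3B hold the split by library number given below, which ran in opposite directions in the 2 genes. Overlap of these SDs therefore does not show equal levels. H1FX (204 ± 18.4), H2AFX (195 ± 11.3) and H2AFZ (191 ± 22.3) were the most abundant variants per kilobase in DND-41, with overlapping SDs. Below HIST1H2BK came HIST1H1C at 15.7 ± 6.13 and HIST1H4C, an H4 gene, at 10.9 ± 1.0 CPM per kilobase. HIST1H2AC reached 6.10 ± 2.97 and HIST1H2AG 3.0 ± 1.51.

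Whether the libraries were made from poly(A) RNA is not given in the sources used here. RNAs that lack a tail were low: RN7SK, the abundant small nuclear RNA that holds back transcription elongation, had 14 to 36 counts per library, and RMRP had 0 to 9. Summed over RN7SK, RN7SL1, RN7SL2, RMRP, RPPH1 and TERC, a list chosen after the values were seen, the level was 3.98 to 11.6 CPM. Its libraries ranged from 9.39 to 11.6 CPM in DND-41 and from 3.98 to 8.43 CPM in MOLT-4. The part of library preparation in the levels of the cluster genes was not tested.

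Near-identical copies were a further limit, since how multi-mapped reads were treated is not given in the sources used here. Counted in windows of 100 bases, 34 of the 56 described genes shared no window with another gene. Of the rest, 7 shared at least 50% and 3 shared 100%: HIST1H3D, HIST1H4K and HIST1H2AK, with an unnamed clone gene, HIST1H4J and HIST1H2BN as partners. Not all of these partners are copies, since windows were matched on both strands and overlapping genes share them. HIST1H2BN overlaps HIST1H2AK on the opposite strand. The clone gene overlaps HIST1H3D on the same strand, as HIST1H2AM overlaps HIST1H3J. Among the 43 gene identifiers not described, 19 shared at least 50%, including the H2A, H3 and H4 copies HIST2H2AA3, HIST2H3A and HIST2H4A. These 19 are not distinct genes. Some are second identifiers of 1 symbol, among them that of the described HIST2H2BD. HIST1H2BK shared 28.4% of its windows, HIST1H3J 36.5%, and HIST1H2AC, HIST1H1C and HIST1H2BH none. H3F3B overlaps the gene UNK on the opposite strand, whose counts came to 20.1% of those of H3F3B, and the strand setting of the counting is not given.

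The start regions of the clusters differ by class, and 5 are shown because the results below turn on these genes. A single RefSeq promoter (build GRCh38.p14, 250 bases before the start site to 50 after it) was found for 44 of the 56 described genes, 38 of them cluster genes. Letter patterns of 3 kinds were searched on both strands, namely CCAAT, the TATA box pattern TATAAA, and the octamer ATTTGCAT, which is bound by POU2F1. CCAAT was in 86.8% of the cluster promoters against 35.7% of all 27305 promoters of the table, TATAAA in 60.5% against 11.95%, and the octamer in 36.8% against 1.80%. By class, the octamer was in 7 of 10 H2A and 6 of 10 H2B promoters, in 1 of 8 H3 promoters and in 0 of 4 H1 and 0 of 6 H4 promoters. CCAAT was in all 10 H2A, all 10 H2B, all 8 H3 and all 4 H1 promoters but in 1 of 6 H4 promoters. The windows of 6 pairs of H2A and H2B genes overlapped, so that 1 match can count in both genes. The octamer of HIST2H2BE, for example, was also counted for HIST2H2AC. The shares are therefore of promoters and not of separate sites. Each stretch printed here ends at the base before the start site, leaves out bases inside a neighbouring gene, reads 5′ to 3′ on the gene's strand, and has the letters of the 3 patterns in capitals.
HIST1H2BK, the cluster gene with the most counts, has 6 CCAAT matches, 3 TATAAA matches, of which 2 overlap, and an octamer that begins 46 bases before the start.
HIST1H2BK, chr6:27146859-27147105, minus strand: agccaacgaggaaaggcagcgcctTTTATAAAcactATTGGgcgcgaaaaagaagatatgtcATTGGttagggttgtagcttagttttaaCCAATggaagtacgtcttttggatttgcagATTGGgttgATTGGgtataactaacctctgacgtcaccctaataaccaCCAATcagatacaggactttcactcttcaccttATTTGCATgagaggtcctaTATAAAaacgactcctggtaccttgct
HIST1H2AC, called higher in both of the authors' deposited tables, has 3 CCAAT matches, a TATAAA 31 bases before the start and an octamer 130 bases before it.
HIST1H2AC, chr6:26123927-26124171, plus strand: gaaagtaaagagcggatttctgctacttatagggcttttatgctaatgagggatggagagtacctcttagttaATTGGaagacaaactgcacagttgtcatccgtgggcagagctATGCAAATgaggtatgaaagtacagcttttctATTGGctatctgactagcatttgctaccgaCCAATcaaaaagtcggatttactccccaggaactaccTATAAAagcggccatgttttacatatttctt
HIST2H2BE, at 0 counts in DND-41, has 3 CCAAT matches, TATAAA 212 and 30 bases before the start, and an octamer 46 bases before it.
HIST2H2BE, chr1:149886683-149886917, minus strand: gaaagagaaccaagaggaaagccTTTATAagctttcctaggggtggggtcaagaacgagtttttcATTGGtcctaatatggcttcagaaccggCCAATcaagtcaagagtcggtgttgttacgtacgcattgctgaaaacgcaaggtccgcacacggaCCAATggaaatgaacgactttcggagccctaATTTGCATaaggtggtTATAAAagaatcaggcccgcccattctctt
HIST3H2A, likewise at 0 in DND-41, has 3 CCAAT matches and no exact match to TATAAA or the octamer in this window.
HIST3H2A, chr1:228457874-228458102, minus strand: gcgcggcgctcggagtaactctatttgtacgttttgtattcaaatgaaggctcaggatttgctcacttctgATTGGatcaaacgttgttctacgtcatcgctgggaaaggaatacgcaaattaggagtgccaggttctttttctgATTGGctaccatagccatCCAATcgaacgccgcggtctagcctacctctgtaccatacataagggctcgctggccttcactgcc
H2AFZ, shown as the most counted replacement variant, has 3 CCAAT matches and a TATAAA 31 bases before the start, and no octamer match.
H2AFZ, chr4:99950276-99950493, minus strand: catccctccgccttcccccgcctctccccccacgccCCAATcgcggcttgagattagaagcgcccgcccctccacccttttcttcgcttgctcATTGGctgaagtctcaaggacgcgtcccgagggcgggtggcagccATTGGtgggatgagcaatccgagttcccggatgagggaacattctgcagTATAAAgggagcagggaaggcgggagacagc
A match is a description of letters and not of a bound site. The windows of HIST2H2BE and HIST3H2A, both at 0 counts in DND-41, differed in 2 of the 3 patterns.

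Summed over all cluster genes, the transcripts of MOLT-4 were higher with ACBI-1, while the direction of the variants depended on the scaling. The 49 cluster genes together stood at 44.0 and 47.6 CPM in the DMSO libraries and at 56.8 and 57.4 CPM in the ACBI-1 libraries, a 1.25-fold difference with no overlap. H2A sums were 10.8 and 10.4 CPM with DMSO and 13.6 and 14.0 CPM with ACBI-1, and H2B sums were 22 and 22.8 CPM against 27.6 and 29.1 CPM. For H3 the sums were 3.73 and 4.74 CPM against 5.41 and 5.91 CPM. H2A, H2B and H3 therefore separated the treatments in MOLT-4. Much of the H3 difference came from HIST1H3J. That gene held 8 and 11 of the 75 and 95 H3 counts with DMSO, and 29 and 33 of 117 and 129 with ACBI-1. Whether H3 separated the treatments without HIST1H3J was not tested. H4 (5.23 and 5.99 CPM against 6.01 and 5.09 CPM) and H1 (2.24 and 3.69 CPM against 4.16 and 3.26 CPM) overlapped. Replacement variants summed to 1916 and 1920 CPM with DMSO and to 1761 and 1773 CPM with ACBI-1 after TMM scaling. With library totals as the scale, the variants were at 1745 and 1758 against 1760 and 1792 CPM, so that the order was reversed (log2 ratio 0.020). H2A, H2B and H3 stayed above on that scale in both ACBI-1 libraries, and the ratio of the overlapping H4 sums turned from −0.01 to 0.12.

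In DND-41 the same sums followed the library number. All cluster genes together stood at 64.4 and 112 CPM in DMSO libraries 1 and 2 and at 62.4 and 115 CPM in ACBI-1 libraries 1 and 2. The libraries numbered 2 exceeded those numbered 1 by 2.33-fold for H2A, 1.85-fold for H1, 1.78-fold for H3, 1.70-fold for H2B and 1.35-fold for H4, whereas the variants stood at 0.901 of the numbered-1 level. Of the 45 described cluster genes with a count in DND-41, both libraries numbered 2 lay above both numbered 1 in 28 and below in 2; over all genes tested in DND-41 these shares were 35.8% and 39.5%.

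**Figure D1:**
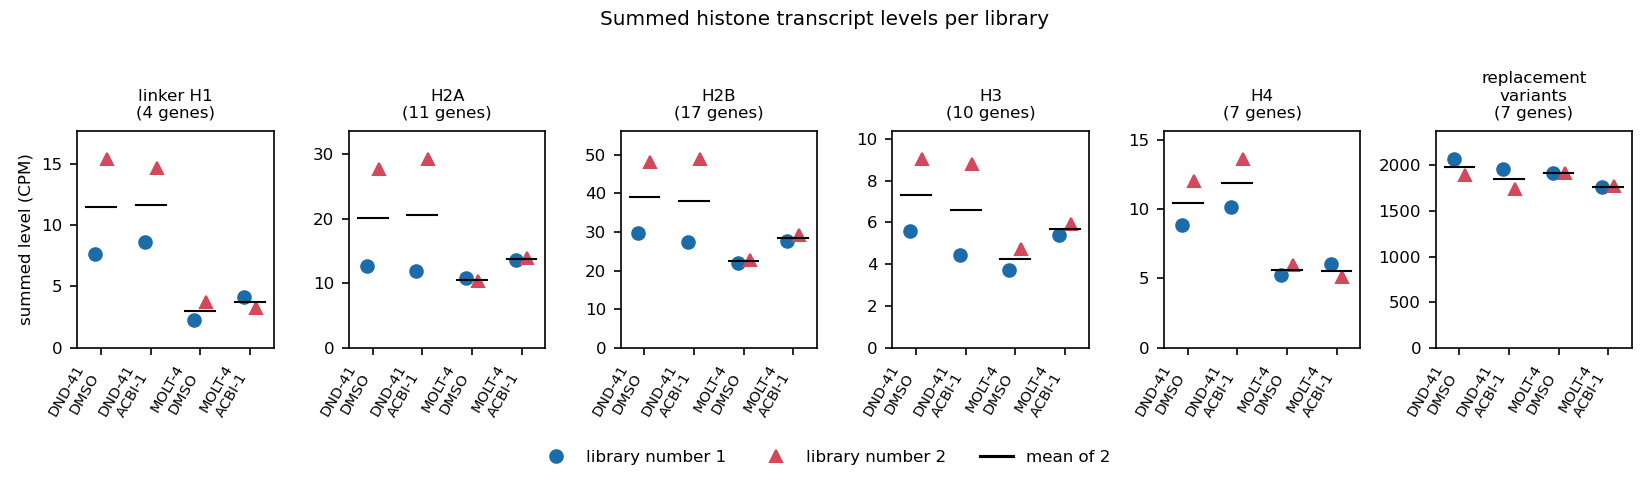
Summed level in CPM of the described genes of each class (vertical axes, each from 0) in the 8 libraries, by line and treatment; circles are libraries numbered 1, triangles libraries numbered 2, and lines the mean of 2. In DND-41 the symbols split by number in the 5 cluster classes, while in MOLT-4 the ACBI-1 libraries lie above the DMSO libraries for H2A, H2B and H3 and, on this TMM scale, below them for the variants, an order that library totals reversed.

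Treatment of MOLT-4 moved single histone genes in both directions. Of the 31 described genes that passed the low-count filter, 9 were higher with ACBI-1, 5 were lower and 17 did not pass the threshold (edgeR quasi-likelihood test, Benjamini-Hochberg adjusted over all 14618 genes tested, threshold 0.05). Of all genes tested, 58.4% were called, 28.2% higher and 30.2% lower, so that the share of histone genes called was no larger than the background. By kind of gene, 8 of 24 cluster genes tested were higher and 1 was lower, with a median log2 fold change of 0.50, whereas 1 of 7 variants was higher and 4 were lower, with a median of −0.10. Over all genes the median was 0.01. Scaled by total counts, 11 of the 24 cluster genes were higher and 1 lower (median 0.61), and 3 of the 7 variants were higher and 2 lower (median 0.02), with 39.7% higher and 20.7% lower over all genes and a median of 0.13. The difference between the 2 kinds of gene was not tested. Of the cluster genes called higher, HIST3H2BA and HIST1H3J passed the low-count filter through their ACBI-1 libraries, where they are high. A further 25 described genes had too few counts to be tested. Over all 49 described cluster genes, tested or not, both ACBI-1 libraries lay above both DMSO libraries in 17, below in 7 and overlapped in 25, beside 37.5% above and 40.5% below among all genes tested.

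Among the variants, H2AFZ and H2AFX fell by small amounts, with total-count scaling as well (−0.12 and −0.14). H2AFZ, the main gene of H2A.Z, which sits beside promoters and start sites, had 528 and 534 CPM with DMSO and 437 and 449 CPM with ACBI-1. It fell by 0.24 on the log2 scale (SE 0.03, edgeR adjusted p = 7.82e-08). H2AFX, whose protein is phosphorylated around DNA breaks, went from 298 and 295 CPM to 250 and 239 CPM. H2AFX fell by 0.26 (SE 0.04, edgeR adjusted p = 4.53e-08). In both genes the libraries of the treatments were well apart.

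H2AFV, the second gene of H2A.Z, moved the other way. Its level was 238 and 239 CPM with DMSO and 269 and 270 CPM with ACBI-1, and it rose by 0.20 (SE 0.04, edgeR adjusted p = 9.83e-06). H1F0, a linker histone known to build up in cells that stop dividing, had 31.5 and 32.2 CPM with DMSO and 28.0 and 26.9 CPM with ACBI-1, and fell by 0.20 (SE 0.07, edgeR adjusted p = 0.0102). That call was lost without ACBI-1 library 2 (edgeR adjusted p = 0.0851), without DMSO library 2 (0.0714) and with scaling by total counts, where H1F0 was at −0.08.

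H3F3B and H3F3A both encode the replacement H3 that is laid down at active genes. H3F3B had 513 and 512 CPM with DMSO and 459 and 482 CPM with ACBI-1, a fall of 0.10 on the log2 scale (SE 0.04, edgeR adjusted p = 0.0108). Its direction depended on the scaling, since total counts gave 0.02, and its adjusted p was 0.0767 to 0.104 without any 1 of the libraries except ACBI-1 library 2. H3F3A (91.3 and 92.4 CPM against 89.1 and 99.0 CPM) and the linker gene H1FX (215 and 215 CPM against 229 and 207 CPM) overlapped between treatments, with log2 differences of 0.05 (SE 0.05) and 0.04 (SE 0.04). Scaling by total counts put both past the threshold, at 0.17 (edgeR adjusted p = 0.00138) and 0.16 (edgeR adjusted p = 0.0003).

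**Figure D2:**
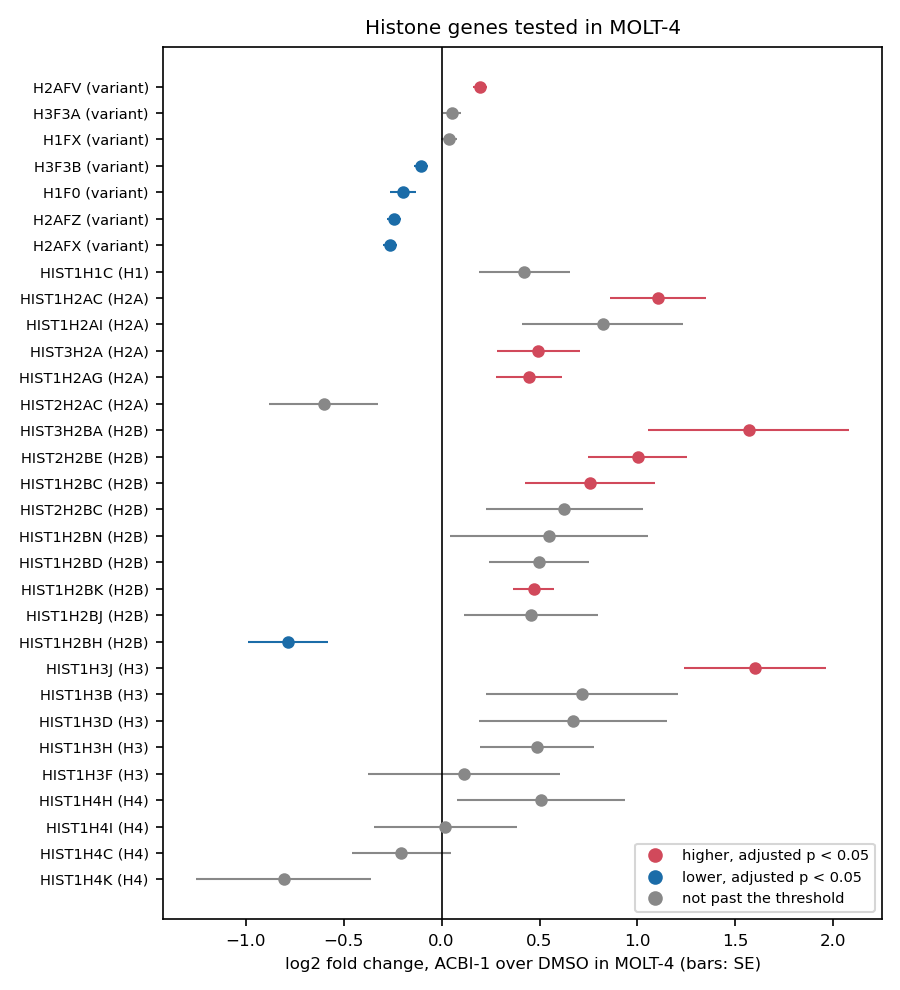
Log2 fold change of ACBI-1 over DMSO in MOLT-4 (horizontal axis, bars are standard errors) for the 31 histone genes tested, grouped by class; red is higher and blue lower at an edgeR adjusted p under 0.05, grey is not past the threshold. Most cluster genes lie to the right of 0 with wide errors, from HIST1H4K at −0.81 to HIST1H3J at 1.60, and the variants lie within 0.27 of 0 with narrow ones.

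Among the H2A genes, 3 of the 5 tested were higher in MOLT-4 with ACBI-1 and none was lower. HIST1H2AC had 1.34 and 1.30 CPM with DMSO and 3.05 and 2.57 CPM with ACBI-1, or 53 counts against 122. It rose by 1.10 on the log2 scale (SE 0.24, edgeR adjusted p = 0.00014), a 2.15-fold change. HIST1H2AG went from 3.19 and 3.99 CPM to 4.72 and 4.95 CPM, and rose by 0.45 (SE 0.17, edgeR adjusted p = 0.0204). HIST3H2A, from the small HIST3 cluster, went from 2.09 and 2.25 CPM to 2.82 and 3.21 CPM, and rose by 0.49 (SE 0.21, edgeR adjusted p = 0.0443). Leaving out any 1 of the 4 libraries ended the call of HIST3H2A (edgeR adjusted p from 0.0661 to 0.182), and that of HIST1H2AG was lost without ACBI-1 library 1 (0.0939), ACBI-1 library 2 (0.129) or DMSO library 1 (0.236).

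Of 9 H2B genes tested, 4 were higher and 1 was lower. HIST1H2BK had 10.5 and 11.5 CPM with DMSO and 13.5 and 16.5 CPM with ACBI-1. It rose by 0.47 (SE 0.10, edgeR adjusted p = 0.000139), and the adjusted p was 0.0552 without ACBI-1 library 2. HIST2H2BE, an H2B gene that can give polyadenylated mRNA, had 25 and 24 counts in the DMSO libraries and 52 and 53 in the ACBI-1 libraries. Its log2 fold change was 1.0 (SE 0.25, edgeR adjusted p = 0.000788), and its call held without any 1 of the 4 libraries. HIST3H2BA, typed as a pseudogene, rose by 1.57 (SE 0.51, edgeR adjusted p = 0.00822) on 9 counts against 29. With 4 and 5 counts in the DMSO libraries, it passed the low-count filter only through the ACBI-1 libraries, where it is high. Its p-value is therefore not separate support.

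HIST1H2BC, which lies beside HIST1H2AC, had 0.85 and 0.75 CPM with DMSO and 1.06 and 1.60 CPM with ACBI-1. It rose by 0.76 (SE 0.33, edgeR adjusted p = 0.0472), and the call was lost without ACBI-1 library 2 (0.363), DMSO library 1 (0.111) or DMSO library 2 (0.205). That of HIST3H2BA was lost without ACBI-1 library 1 (0.0835), DMSO library 1 (0.0992) or DMSO library 2 (0.0534). HIST1H2BH was the 1 cluster gene called lower. It had 3.83 and 3.64 CPM with DMSO and 2.36 and 1.93 CPM with ACBI-1, and fell by 0.78 (SE 0.20, edgeR adjusted p = 0.001), also without any 1 of the libraries. HIST1H2BD (1.39 and 1.55 CPM against 2.17 and 1.93 CPM) did not overlap between treatments and missed the threshold (log2 difference 0.50, edgeR adjusted p = 0.0907).

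H3, H4 and H1 genes gave a single call between them. HIST1H3J had 0.40 and 0.55 CPM with DMSO and 1.34 and 1.51 CPM with ACBI-1, or 19 counts against 62. It passed the low-count filter through the ACBI-1 libraries, where it is high, so its p-value is not separate support. HIST1H3J rose by 1.60 (SE 0.36, edgeR adjusted p = 0.000202), a 3.03-fold change. It overlaps HIST1H2AM on the same strand, whose counts came to 27.5% of its own. HIST1H3H (1.0 and 1.30 CPM against 1.48 and 1.70 CPM) and HIST1H3D (0.40 and 0.30 CPM against 0.55 and 0.55 CPM) were not called (edgeR adjusted p = 0.147 and 0.232). Of the 4 H4 genes tested, 0 were called, and HIST1H4C, the most counted, had 2.39 and 3.05 CPM with DMSO and 3.28 and 1.38 CPM with ACBI-1. HIST1H4H (0.75 and 0.30 CPM against 0.79 and 0.69 CPM) and HIST1H4I (0.60 and 1.20 CPM against 0.74 and 1.05 CPM) overlapped as well.

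HIST1H1C was the 1 H1 gene with enough counts to test, at 1.54 and 2.85 CPM with DMSO and 3.19 and 2.61 CPM with ACBI-1. Its log2 difference was 0.42 (SE 0.23, edgeR adjusted p = 0.118), and the libraries overlapped. HIST1H1D had 0.15 and 0.25 CPM against 0.18 and 0.14 CPM, and HIST1H1E 0.30 and 0.10 CPM against 0.32 and 0.18 CPM, too low to be tested in MOLT-4.

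Genes that share a start region did not always move together. Among the 44 described genes with a single promoter entry, the windows of 6 pairs of H2A and H2B genes overlapped on opposite strands. Pairs of genes without a single entry are missing from this count. HIST1H2BC, which lies beside HIST1H2AC, had 2 entries and was left out, and both genes were called higher with ACBI-1. In the pair of HIST2H2BE and HIST2H2AC, HIST2H2BE rose as given above. Its partner HIST2H2AC, an H2A gene with 42 and 32 counts with DMSO and 24 and 28 with ACBI-1, stood lower without passing the threshold (log2 difference −0.60, SE 0.28, edgeR adjusted p = 0.059). The difference between the changes of the 2 genes was not tested. HIST1H2AG and HIST1H2BJ were both higher in both ACBI-1 libraries, with 64 and 80 against 102 and 108 counts for HIST1H2AG and 15 and 17 against 20 and 27 counts for HIST1H2BJ, of which HIST1H2AG passed the test.

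The number of calls in MOLT-4 depended on the tool. DESeq2 on the same counts called 7 histone genes, 4 higher and 3 lower, all 7 of them among the 14 of edgeR. Those not called by DESeq2 included HIST2H2BE (adjusted p = 0.075), HIST1H2BH (0.0685) and H1F0 (0.146). With no low-count filter edgeR called 8, and HIST1H2BK was not among them (adjusted p = 0.102). With library totals as the scale instead of TMM, the median of all genes was 0.13 and the split of the histone calls was 14 higher and 3 lower. With the spread estimated over all 8 libraries, where the DND-41 libraries differ by number, 0 histone genes were called.

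**Figure D3:**
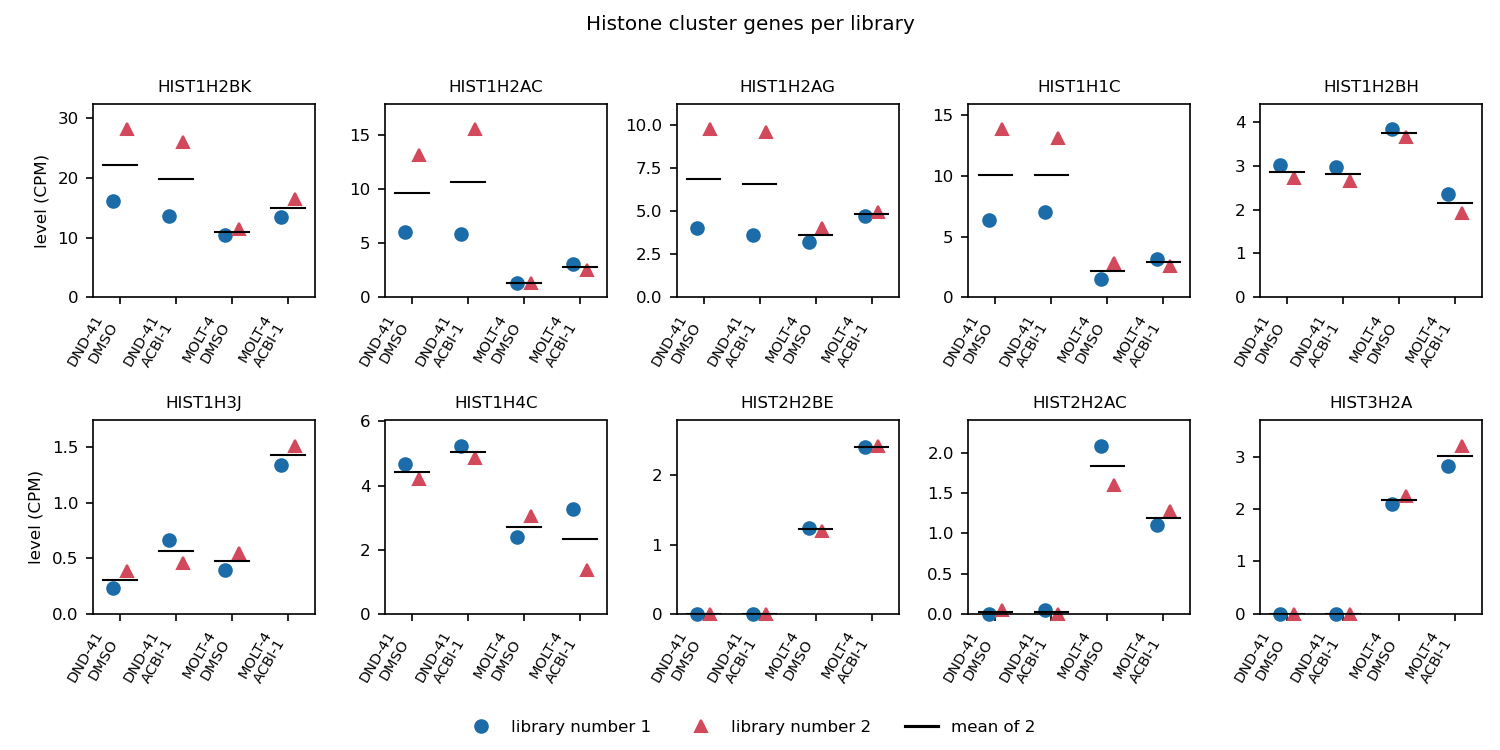
Level in CPM (vertical axes, each from 0) of 10 cluster genes in the 8 libraries, by line and treatment; circles are libraries numbered 1, triangles libraries numbered 2, and lines the mean of 2. HIST2H2BE and HIST3H2A are at 0 in DND-41, HIST1H2BH is the gene called lower with ACBI-1 in MOLT-4, and HIST1H2AC shows both the step between MOLT-4 treatments and the split by number in DND-41.

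As labelled, and with no term for the library number, ACBI-1 changed no histone gene of DND-41 past the threshold. Of 39 described genes tested, 0 were called by edgeR, 0 had an unadjusted p under 0.05 and DESeq2 called 0; over all 14602 genes edgeR called 0%, with 37 at an unadjusted p under 0.05. Log2 differences of the histone genes ran from −0.67 to 0.94. For HIST1H2AC, the DMSO libraries had 6.08 and 13.2 CPM and the ACBI-1 libraries 5.86 and 15.6 CPM, so that libraries of 1 treatment differed more than the treatments did. HIST1H2BK (16.2 and 28.2 CPM with DMSO, 13.6 and 26.1 CPM with ACBI-1) and HIST1H1C (6.32 and 13.8 CPM, 7.04 and 13.1 CPM) had the same layout. H3F3B was split the opposite way, with 391 and 225 CPM with DMSO and 355 and 200.4 CPM with ACBI-1. H1F0, at 265 and 283 CPM with DMSO and 265 and 258 CPM with ACBI-1, showed no such split.

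The other named cluster genes of DND-41 are given with the DMSO libraries first, 1 before 2, and then the ACBI-1 libraries. HIST1H2AG had 4.01 and 9.75 CPM against 3.59 and 9.61 CPM. HIST1H2BD had 2.69 and 4.11 CPM against 2.55 and 4.66 CPM. HIST1H2BC had 0.71 and 1.40 CPM against 0.80 and 1.47 CPM. All 3 were split by number, upwards in the libraries numbered 2. Among the H3 and H4 genes, HIST1H3H had 1.65 and 2.54 CPM against 0.61 and 1.97 CPM, and HIST1H3D 0.42 and 1.99 CPM against 0.52 and 1.64 CPM. HIST1H4H had 0.99 and 2.76 CPM against 1.56 and 3.53 CPM, and HIST1H4I 1.42 and 2.5 CPM against 1.32 and 1.76 CPM. These 4 genes were split in the same way. HIST1H4C (4.67 and 4.20 CPM against 5.24 and 4.87 CPM), HIST1H3J (0.24 and 0.38 CPM against 0.66 and 0.46 CPM) and HIST1H1D (0.66 and 0.93 CPM against 0.99 and 0.84 CPM) were not split by number. HIST1H1E had 0.47 and 0.47 CPM against 0.38 and 0.38 CPM, without a split by number either. HIST1H2BH, at 3.02 and 2.71 CPM against 2.98 and 2.64 CPM, was lower in the libraries numbered 2.

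The variants of DND-41 were split less evenly. H2AFX had 334 and 306 CPM with DMSO and 323 and 293 CPM with ACBI-1, and H2AFV 229 and 244 CPM against 225 and 225 CPM. H2AFZ had 502 and 418 CPM with DMSO and 456 and 382 CPM with ACBI-1. H1FX stood at 292 and 345 CPM against 282 and 310 CPM, and H3F3A at 58.0 and 72.0 CPM against 55.7 and 70.1 CPM. Among these, the libraries numbered 2 were the lower ones for H2AFZ and H2AFX and the higher ones for H1FX and H3F3A.

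Without a term for the library number, the change with ACBI-1 was not shown to differ between the lines. In this test of the difference, 0 of 45 histone genes were called by edgeR and 0 by DESeq2, with 1 at an unadjusted p under 0.05, HIST1H2BH; over all 16047 genes 0.393% were called. The median difference, MOLT-4 minus DND-41 as labelled, was 0.42 for 38 cluster genes and 0.04 for 7 variants on the log2 scale, beside 0.01 for all genes.

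By the authors' deposited table of DND-41, 10 histone genes were called higher and 2 lower of 41 with an adjusted p, beside 15.2% and 21.6% of all 14883 such genes. The cluster genes of that authors' deposited table had 8 called higher and 0 lower of 34, with 30 positive and a median of 0.90, against −0.00 for all genes. Since its contrast equals that of the library numbers, its direction cannot be tied to ACBI-1 from the labels. Called higher in the authors' deposited table of DND-41 were the H1 gene HIST1H1C (1.02), the H2A genes HIST1H2AC (1.27) and HIST1H2AG (1.36), and the H2B genes HIST1H2BK (0.87) and HIST1H2BJ (1.11). The same authors' deposited table called HIST1H3D (1.95), HIST1H3E (2.55) and HIST1H4H (1.31) higher, each a low-count gene of H3 or H4, as well as the variants H1FX (0.20) and H3F3A (0.33). It called H3F3B (−0.80) and H2AFZ (−0.25) lower, the only 2 lower calls in the authors' deposited table of DND-41.

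The authors' deposited table of MOLT-4 called 4 histone genes higher and 3 lower of 47, beside 14.7% and 20.3% of all 16234 genes. Of the genes called higher, 2 were the same in the authors' deposited tables of both lines, that is 2 of 4 in MOLT-4 and 2 of 10 in DND-41: HIST1H2AC (1.10 in MOLT-4) and HIST1H2BK (0.46 in MOLT-4). Called lower in both of the authors' deposited tables were H2AFZ and H3F3B, 2 of 3 in MOLT-4 and 2 of 2 in DND-41, at −0.25 and −0.12 in MOLT-4. HIST1H3J was called in the authors' deposited table of MOLT-4 (1.60) and had −0.08 in that for DND-41. The libraries of the 2 lines are separate, so that these tables share no sample. The overlap of calls over all genes was not counted, so the overlaps given here cannot be judged against a background.

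**Figure D4:**
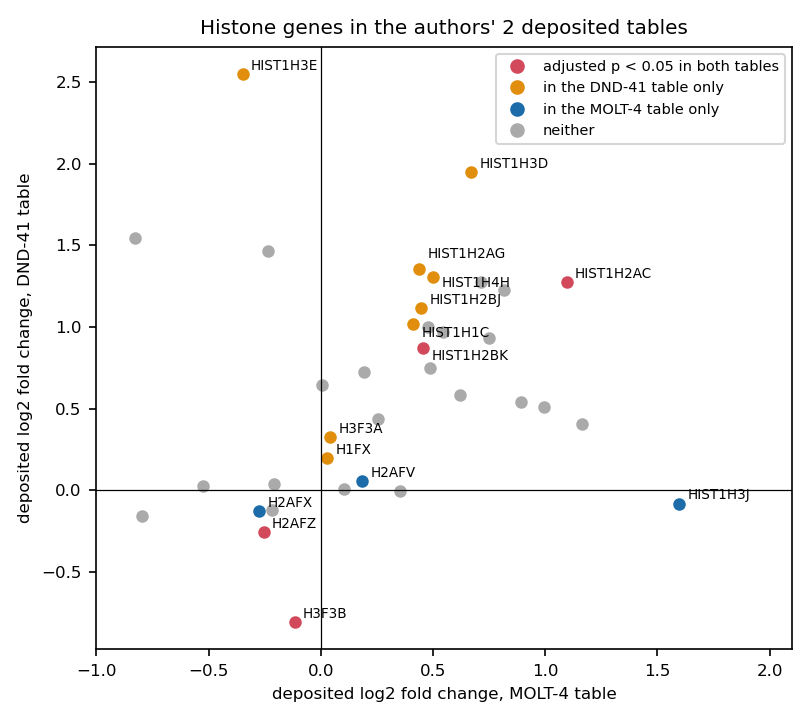
Log2 fold changes of the 36 histone genes with an adjusted p in both of the authors' deposited tables, MOLT-4 on the horizontal and DND-41 on the vertical axis; red is an adjusted p under 0.05 in both tables, orange in DND-41 only, blue in MOLT-4 only and grey in neither. The DND-41 axis is the contrast that equals libraries numbered 2 over 1; HIST1H2AC and HIST1H2BK lie in the upper right, and H2AFZ and H3F3B in the lower left.

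Histone genes also differed between the lines. With MOLT-4 set against DND-41, over the mean of both treatments, 7 histone genes were higher and 22 lower of 45 tested by edgeR, beside 26.8% and 26.6% of all 16047 genes. This contrast does not depend on which DND-41 library had which treatment. Of 38 cluster genes tested, 5 were higher in MOLT-4 and 19 lower, and their median log2 difference was −0.98 against −0.02 for all genes. In the MOLT-4 libraries alone 24 cluster genes passed the low-count filter, and in the DND-41 libraries alone 32. Some tested here thus passed only through the line where they are high. These call counts and their median are therefore not separate support for a direction. Over all 49 described cluster genes, without a filter, the 4 MOLT-4 libraries lay above the 4 DND-41 libraries in 6, below in 18 and overlapped in 25, beside 25.3% above and 24.0% below over all genes tested.

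Of the described genes of the HIST2 and HIST3 clusters, 4 had counts in MOLT-4 and 0 in DND-41. The share of all genes with this pattern is not given here. Other HIST2 genes went the opposite way: HIST2H2BC had 179 counts in DND-41 and 69 in MOLT-4, HIST2H2BD 118 and 32, and HIST2H2BF 57 and 22. HIST2H2BC and HIST2H2BD, both typed as pseudogenes, overlap on opposite strands and share 38.3% and 69.1% of their windows. As the strand setting of the counting is not given, their counts may not be separate. Counts assigned to the HIST2 cluster as a whole were therefore not at 0 in DND-41. HIST3H2A had 0 counts in each DND-41 library and 42 and 45 (DMSO) and 61 and 70 (ACBI-1) in MOLT-4. Against the limit of 3 counts that a count of 0 allows over the 4 libraries, it was at least 71.6-fold higher in MOLT-4. HIST2H2BE, with 154 counts against 0, was at least 50.6-fold higher, HIST3H2BA (38 against 0) at least 12.5-fold and HIST3H2BB (22 against 0) at least 7.22-fold. These limits cover counting error only. HIST2H2AC, the partner of HIST2H2BE, had 126 counts in MOLT-4 and 2 in DND-41. HIST3H2A, HIST2H2BE, HIST2H2AC and HIST3H2BA were past the threshold (edgeR adjusted p = 0.000134, 0.000199, 0.000196 and 0.00282), and HIST3H2BB was not tested. These genes passed the count limits only through MOLT-4, where they are high, so their p-values are not separate support for the difference.

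Other cluster genes were mostly lower in MOLT-4. HIST1H2BG, with 82 counts in DND-41 and 4 in MOLT-4, had the largest of these differences, −4.23 on the log2 scale (SE 0.82, edgeR adjusted p = 0.00519). HIST1H2AE had 104 counts against 9 (−3.57) and HIST1H3C 89 against 7 (−3.47). HIST1H2BG, HIST1H2AE and HIST1H3C passed the low-count filter only through DND-41, where they are high. The abundant genes shared this direction: HIST1H2AC ranged from 5.86 to 15.6 CPM in DND-41 and from 1.30 to 3.05 CPM in MOLT-4 (−2.40, SE 0.41, edgeR adjusted p = 0.003). HIST1H1C ranged from 6.32 to 13.8 CPM in DND-41 and from 1.54 to 3.19 CPM in MOLT-4 (−2.00, SE 0.37, edgeR adjusted p = 0.00424). In both, no library of 1 line reached those of the other. HIST1H2BK (−0.71, edgeR adjusted p = 0.0621) and HIST1H2AG (−0.70, edgeR adjusted p = 0.183) overlapped and were not called, and HIST1H2BH was at −0.00 (SE 0.14). HIST1H3J was higher in MOLT-4 (0.97, edgeR adjusted p = 0.0231), a call that was lost with DESeq2 (adjusted p = 0.089) and in MOLT-4 DMSO against both DND-41 groups (edgeR adjusted p = 0.728), as well as without DND-41 ACBI-1 library 2, DND-41 DMSO library 1, either MOLT-4 ACBI-1 library or MOLT-4 DMSO library 2 (edgeR adjusted p from 0.0575 to 0.0958).

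By class, the calls lower in MOLT-4 were 5 of 6 H4 genes, 2 of 3 H1 genes, 8 of 14 H2B genes, 2 of 7 H2A genes and 2 of 8 H3 genes. In the MOLT-4 libraries alone, only 4 H4, 1 H1, 9 H2B, 5 H2A and 5 H3 genes passed the low-count filter. Other genes tested here needed the DND-41 libraries to pass, so these call counts are not separate support. Of the H4 genes, 0 had been called between the MOLT-4 treatments. HIST1H4H (203 counts in DND-41, 53 in MOLT-4) differed by −1.81 and HIST1H4I (159 and 75) by −0.95. HIST1H4C (425 and 210) differed by −0.91 with edgeR adjusted p = 0.0291, and leaving out DND-41 DMSO library 1 (0.0552), MOLT-4 DMSO library 1 (0.103) or MOLT-4 DMSO library 2 (0.0659) ended its call. The call of HIST1H4H was lost without DND-41 DMSO library 2 (0.0522), MOLT-4 ACBI-1 library 1 (0.0646) or 2 (0.0731), or MOLT-4 DMSO library 2 (0.0707). That of HIST1H4I was lost without library 2 of either DND-41 group (0.103 and 0.117), either MOLT-4 ACBI-1 library (0.141 and 0.0799) or MOLT-4 DMSO library 1 (0.128).

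H1F0, the linker variant, had the largest line difference of the 7 variants. It had 258 to 283 CPM in the DND-41 libraries and 26.9 to 32.2 CPM in those of MOLT-4, a log2 difference of −3.18 (SE 0.06, edgeR adjusted p = 8.25e-07). H1FX was lower in MOLT-4 as well, with a log2 difference of −0.50 (SE 0.08, edgeR adjusted p = 0.00283). Both genes of the replacement H3 were higher in MOLT-4, H3F3A by 0.54 (SE 0.11, edgeR adjusted p = 0.00756, or 0.0503 with scaling by total counts) and H3F3B by 0.75 (SE 0.23, edgeR adjusted p = 0.0294). H2AFX was called lower in MOLT-4 (−0.22, edgeR adjusted p = 0.0227) although its libraries overlapped, and H2AFZ (0.14) and H2AFV (0.14) were not called. The call of H3F3B was lost without any 1 of the MOLT-4 libraries (edgeR adjusted p from 0.0782 to 0.0872) or without DND-41 DMSO library 2 (0.0545). That of H2AFX was lost without any 1 of the MOLT-4 libraries (0.0757 to 0.102) or without DND-41 DMSO library 1 (0.0605).

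**Figure D5:**
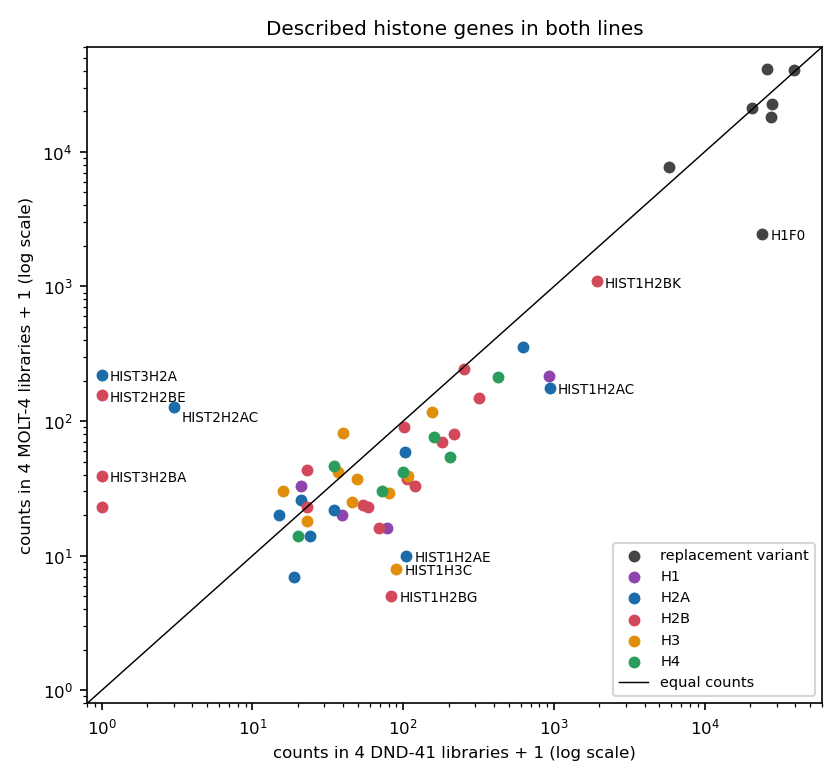
Counts of the 56 described histone genes summed over the 4 DND-41 libraries (horizontal) and the 4 MOLT-4 libraries (vertical), each plus 1 on log axes, coloured by class; the line marks equal counts. HIST3H2A, HIST2H2BE and HIST3H2BA stand on the left edge with 0 counts in DND-41, and H1F0 lies below the line with 24057 counts in DND-41 and 2470 in MOLT-4.

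Genes that serve histone mRNAs moved in both directions in MOLT-4. Of 37 genes of histone transcription and mRNA processing, 9 were higher with ACBI-1 and 19 lower, with a median log2 fold change of −0.11, beside 28.2% and 30.2% of all genes. The balance turned with the scaling: total counts gave 13 higher and 5 lower, with a median of 0.01, beside 39.7% and 20.7%. The uridylyl transferase gene ZCCHC11 (0.47), the cleavage scaffold gene SYMPK (0.39) and NFYC (0.42), a subunit of the CCAAT-binding factor NF-Y, rose, and the cleavage factor gene CSTF2T (−0.42) fell. NPAT, the coactivator of histone clusters in S phase, fell from 59.6 and 66.4 CPM to 50.4 and 54.3 CPM (log2 difference −0.25, edgeR adjusted p = 0.000218). SLBP, which binds the stem-loop, fell by 0.12 (edgeR adjusted p = 0.00745), but was at 0.0033 with total counts, where it was not called (edgeR adjusted p = 0.949). NPAT and SLBP were chosen after their values were seen.

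Among chaperone and S-phase genes more were lower than higher after TMM scaling, and more were higher than lower with total counts. Of 36 genes of histone chaperones and deposition, 7 were higher and 15 lower in MOLT-4 with ACBI-1, again beside 28.2% and 30.2% of all genes, and 19 and 9 with total counts. The nucleolar chaperone genes NCL (−0.63) and NPM1 (−0.43) and the chaperone gene SET (−0.31) fell, and ATRX (0.38), whose protein helps deposit the replacement H3, rose. Of 40 genes of S phase and DNA replication, 7 were higher and 15 lower, with a median of −0.04, and total counts gave 21 higher and 9 lower. UHRF1 (−0.87), which reads hemimethylated DNA, CDC6 (−0.34), which loads the replicative helicase, and the phosphatase gene CDC25A (−0.37) fell, and E2F2 (0.88) rose. Beyond the rule, 2 further histone variants were tested: H2AFY, which encodes macroH2A, fell by 0.59, and CENPA, the centromeric H3, was at 0.04, or 0.16 with total counts (edgeR adjusted p = 0.0112). All of these calls are edgeR's, with adjusted p-values over all genes tested. In DND-41 as labelled, 0 genes of these 4 lists were called, and in the test between the lines 0.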

How the data were processed

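Raw counts per Ensembl gene were deposited by the authors, in 1 table per line, from reads aligned to hg19 with STAR 2.5.2a and counted with featureCounts, per the submitters' processing notes. The authors also deposited a DESeq2 1.12.4 table per line with a mean count signal over samples, log2 fold changes with standard errors, a Wald score, and a p-value with its adjusted p-value, per the file headers. Low counts limit the cluster genes: most have under 1 CPM.

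Treatments were compared within a line by the 2-sided quasi-likelihood test of edgeR 4.0.16 (R 4.3.3) after TMM scaling and filterByExpr, and the line difference and its interaction with treatment in 1 edgeR fit of 8 libraries. Benjamini-Hochberg adjustment ran over all genes tested. CPM use 1 TMM scaling over 8 libraries. Alternatives were DESeq2 1.42.0, total-count scaling, no filter or 1 CPM, leaving out each library, a replicate block, a shared spread and other line contrasts. The tests were checked on simulated data.

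Promoters came from RefSeq (GRCh38.p14). Exon lengths and shared windows came from GENCODE release 29, to which 33 of the 56 genes matched by identifier and 23 by symbol. No hg19 coordinates are given.

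The members and gene lists were chosen with earlier results of these data known. Named with values in every library were all 7 variants and, per class, the 3 most abundant cluster genes and up to 3 per direction with the largest called change in MOLT-4 and separate libraries; of other lists, up to 4 genes with the smallest adjusted p in MOLT-4, or the 2 most abundant where none passed. Other genes named were chosen after their values were seen.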

Additional observations from a re-analysis of the deposited data

How the results depend on the processing

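Low counts set the limit: with 49 cluster genes on 12398 counts in all, a missed threshold does not show that a gene did not change. In MOLT-4, the 14 histone calls became 7 with DESeq2, 8 with every gene tested and 0 when all 8 libraries shared 1 spread, and 10 to 13 without any 1 library; the cause was not tested. Between the lines, the 29 calls became 14 with DMSO libraries as labelled only, which leaves 2 libraries per line, and 17 to 33 without any 1 library; there were 17 without MOLT-4 ACBI-1 library 1 or 2, 18 without MOLT-4 DMSO library 2, and 19 without MOLT-4 DMSO library 1 or DND-41 DMSO library 2. MOLT-4 DMSO against both DND-41 groups, chosen after the data were seen, gave 23. Total counts moved the median line difference of all genes from −0.02 to −0.14. Without its most abundant gene, the log2 ratio of the class sums in MOLT-4 was 0.24 for H2A (0.38 with it), 0.23 for H2B (0.34) and −0.0666 for the variants (−0.12). Scaling these sums by total counts, chosen after the data were seen, gave 0.52 for H2A and 0.48 for H2B, and reversed H4 (−0.01 to 0.12) and the variants (−0.12 to 0.020).

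Reversed directions were, except for H3F3B, of genes not past the threshold. In MOLT-4, H3F3B was at 0.0156 with total counts and HIST1H4I at −0.00126 without a filter. Leaving out 1 library gave −0.0331 to 0.11 for H1FX, −0.0229 to 0.13 for H3F3A, −0.96 to 0.29 for HIST1H4C, −0.40 to 0.59 for HIST1H4I and −0.00787 to 1.30 for HIST1H4H. Between the lines, HIST1H2BH was at 0.00652 with DESeq2, at 0.38 with DMSO libraries as labelled only and at 0.39 in MOLT-4 DMSO against both DND-41 groups. Leaving out 1 library gave −0.0753 to 0.0687 for HIST1H2BH, −0.29 to 0.20 for HIST1H2BC and −0.59 to 0.25 for HIST1H3H. Of 227 values of single histone genes in MOLT-4, 164 stayed on their side of the threshold in the same direction, as did 300 of 372 between the lines.

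Libraries with the same number deviated together in DND-41 (correlation 0.849) and not in MOLT-4 (0.00928), over 2 pairs each, which does not show that numbers pair the samples. With the replicate block, 2 histone genes were called in DND-41 as labelled (H2AFZ at −0.13 and H3F3B at −0.15) and 6 in the difference between the lines (H2AFV, HIST1H2BK, HIST1H2AC and HIST1H3H higher, H2AFX and HIST1H2BH lower), where there were 0 without it, beside 14 in MOLT-4 and 26 between the lines. Under that block the line difference was 0.0525 for HIST1H2AG, 0.00574 for HIST1H2BH, 0.30 for HIST1H2BC and 0.17 for HIST1H3H.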
